A study of Mus musculus with 30 samples.

Results

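The 316 chromatin sites described here are those that a deposited list of doxycycline effects gives at a lower level with doxycycline than without it. They were chosen by the authors' own values: a site belongs to them when its mean level with doxycycline was below its mean level in the group with neither drug. They make up 4.15% of the 7613 sites in that list, and the other 7297 sites were raised. The list holds only sites at a false discovery rate (FDR) of at most 0.05 and an absolute log2 fold of at least 1. About 81359 sites had been tested, a number worked out from the deposited ranks, p-values and FDRs, so the lowered sites are 0.388% of the sites tested and the sites of both directions 9.36%. The levels and folds that chose the sites are given as a description, without a test.

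The cells were primary fibroblasts from mouse tail tendon, labelled wildtype in all 30 libraries of the study. The group with neither drug and the group with doxycycline at 10 ng/mL had 3 libraries each, and 6 further libraries received blebbistatin, which blocks the motor of non-muscle myosin II, at 10 µM, with and without doxycycline. The labels call the group with neither drug DMSO, describe only ATAC for genomic DNA without tying it to these 12 libraries, and do not say what doxycycline induced. A separate set of 9 ATAC libraries and 9 poly(A) RNA libraries compared DMSO, blebbistatin at 10 µM and Y27632 at 30 µM, a kinase inhibitor, with 3 libraries each. All treatments were given in medium with 0.1% serum. No RNA library had doxycycline. The labels do not say which libraries came from separate animals or cultures, so the p-values below measure the spread between these libraries, which may be technical.

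Doxycycline is an antibiotic that is widely used to switch on a gene placed under a tetracycline-controlled promoter. ATAC uses a transposase that inserts adapters where DNA is not wrapped in nucleosomes, so that read density marks open promoters and enhancers. Tendon fibroblasts build and remodel a matrix of type I collagen, and Yap and Taz are co-activators that enter the nucleus when cells are spread and under tension and bind enhancers through Tead factors.

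Sequence could be read for 2 of the 316 sites, those that a RefSeq promoter window of GRCm38.p6 covers in whole or in part. They are shown because they are the members of which the bases can be seen, and they lie at chr11:29808620-29808822 (plus strand) and chr1:120088946-120089060 (minus strand). The first is the whole site annotated to 4931440F15Rik, in intron 17 of 41 of Eml6, and the second is 115 of the 185 bases of an intergenic site annotated to Tmem37. Capitals mark a match to any of the motifs searched.
4931440F15Rik site: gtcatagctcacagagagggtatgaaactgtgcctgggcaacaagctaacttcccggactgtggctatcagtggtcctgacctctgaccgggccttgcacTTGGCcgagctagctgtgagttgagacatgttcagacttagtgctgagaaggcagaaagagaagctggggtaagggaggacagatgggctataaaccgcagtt
Tmem37 site: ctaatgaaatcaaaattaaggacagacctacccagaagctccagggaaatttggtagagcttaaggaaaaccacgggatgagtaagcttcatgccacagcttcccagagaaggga

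In the authors' deposited table the first site fell from a log2 level of 5.34 to 4.20 and the second from 5.13 to 3.95. The GC content was 53.2% in the first and 45.2% in the second, beside 53.8% over all promoter windows at either length. The motifs were searched on both strands: TEAD (GGAATG), AP-1 (TGANTCA), RUNX (TGTGGT), C/EBP (TTGCNNAA), the NFI motif (TTGGC), the first E-box (CAGCTG), the second E-box (CACGTG), the GATA motif (AGATAA), homeobox (TAATTA), forkhead (TGTTTAC), ETS (CCGGAAGT), the steroid receptor motif (AGAACA) and the CArG box. The 1 match was to the NFI letters at base 101 of the first sequence. These letters occur in 35.6% of the 32851 promoter windows in a stretch of that length. The NFI and steroid receptor letters searched spell 1 arm of a paired site, not a whole site. The TEAD letters, absent from both stretches, occur in 10.4% of windows at the first length and 5.51% at the second, and the AP-1 letters in 5.44% and 3.03%. A match or its absence describes these letters only.

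The lowered sites started from moderate levels and fell by a little over 1 log2 unit. Their log2 level without doxycycline ran from 3.57 to 8.36 with a median of 5.54, and with doxycycline from 1.38 to 7.19 with a median of 4.36. The authors' deposited table gives log2 folds between -2.38 and -1 with a median of -1.18, where the raised sites have a median of 1.16. A fold beyond 1.5 was listed at 37 of the lowered sites, or 11.7%, and at 13.0% of the raised sites. The evidence behind single lowered sites was weaker than behind raised ones in the same list: 245 of them, or 77.5%, had an FDR under 0.01, against 97.8% of the raised sites. By p-value their median rank was 13903 and that of the raised sites 4050, and 4 of them were among the first 1000 ranks. The lists hold group means only, so the spread between libraries at a site is not known here.

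**Figure D1:**
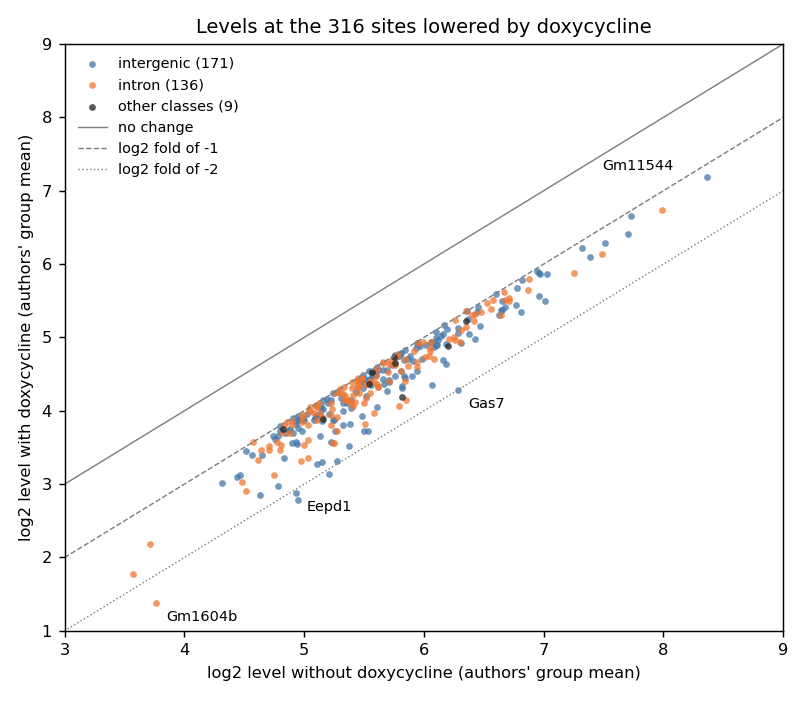
Log2 level of each of the 316 sites without doxycycline (horizontal axis) and with doxycycline (vertical axis), 1 point per site, as the authors' group means of 3 libraries, coloured by annotation class. The lines mark no change and log2 folds of -1 and -2; the threshold of the list keeps all points at or under the line of -1, and most lie between it and the line of -2.

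The largest decrease was at a site in intron 1 of Gm1604b (chr17:8098971-8099277), which went from a log2 level of 3.76 to 1.38, from 13.6 to 2.6 on the linear scale. It is also 1 of the 3 faintest members before doxycycline, with the sites annotated to Ugt1a6a (3.57 to 1.77) and Mtnr1b (3.71 to 2.19). Among the large decreases the lowest FDR was at a site upstream of Gas7, which encodes an actin-binding adaptor protein. That site (chr11:67509581-67509934), 23240 bases before the start, went from 6.28 to 4.28, or from 77.7 to 19.4 on the linear scale, with an FDR of 2.68e-08 in the authors' deposited table. The 10th place by fold is shared by 3 sites at -1.80, so 12 sites are given as the largest decreases. The others were annotated to 1010001N08Rik (-2.16), Gm826 (-2.07), Eepd1 (-2.05), 1700019M22Rik (-1.95), Arid1a (-1.85), Gipc2 (-1.84), Slc16a1 (-1.83), Nnmt, Phactr1 and Ugt1a6a (-1.80 each), by the fold of the authors' deposited table. Of the 12 sites, 10 are intergenic, between 6116 bases (Nnmt) and 257708 bases (1010001N08Rik) from the start of the annotated gene, and those of Gm1604b and Ugt1a6a are intronic. Arid1a encodes a subunit of the SWI/SNF remodelling complex, Slc16a1 a lactate transporter and Nnmt an enzyme that methylates nicotinamide.

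The lowest FDRs were found at other sites. The site annotated to H2afy3 (chr15:62475517-62475974) went from 7.01 to 5.50 with an FDR of 1.21e-08 in the authors' deposited table. After it and Gas7 came a site in intron 1 of Ralgds, a guanine nucleotide exchange factor for Ral (chr2:28534398-28534862, 7.49 to 6.14), and a site in intron 6 of St3gal1, a sialyltransferase (chr15:67110359-67111023, 7.99 to 6.73). These 4 are the members among the first 1000 ranks. At the fold threshold, the authors' deposited table lists sites annotated to Bach2, Fendrr and Nell2 at -1, and the nearest raised sites, annotated to Hils1, Kif21a and Asap1, at 1. At the FDR threshold the last members were annotated to Ms4a7 (0.0497), Ccdc186 (0.0486) and Mir96 (0.0397).

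By the authors' annotation, promoters were nearly absent from the lowered sites. The authors' annotation places 171 of them (54.1%) between genes and 136 (43.0%) in introns, beside 39.6% and 36.5% of the raised sites. A promoter holds 1 lowered site (0.317%), and 1421 raised sites (19.5%). That site lies 354 bases before the start of Phyhd1, which encodes a dioxygenase-like protein (chr2:30265749-30265949), and went from 6.35 to 5.23. The remaining 8 sites lie at a transcript end (5, annotated to Wsb1, 4933425L06Rik, Ntf3, Mir96 and Chac1), in an exon (1, annotated to Thoc1), in a non-coding transcript (1, Ggt5) and in a 3' UTR (1, Ccdc186). The exon belongs to Colec12, and the transcript end listed under 4933425L06Rik is that of Rnf180. By the authors' distances, 2 lowered sites lay within 1 kb of a start (0.633%), beside 23.2% of the raised sites. They were the Phyhd1 site and a site in intron 1 of Trhr2, 325 bases past its start. The 2 sites with sequence above also overlap RefSeq promoter windows, of Gm39671 and Gm41937. The authors' annotation gives these sites to other genes. The median distance to the nearest start was 41.4 kb, beside 21.5 kb for the raised sites, and 73 lowered sites were over 100 kb away. Between intergenic and intronic sites alone these medians were 43.5 kb and 37.8 kb. Sites are not replicates, so these shares are a description of 2 sets of sites from 1 contrast.

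**Figure D2:**
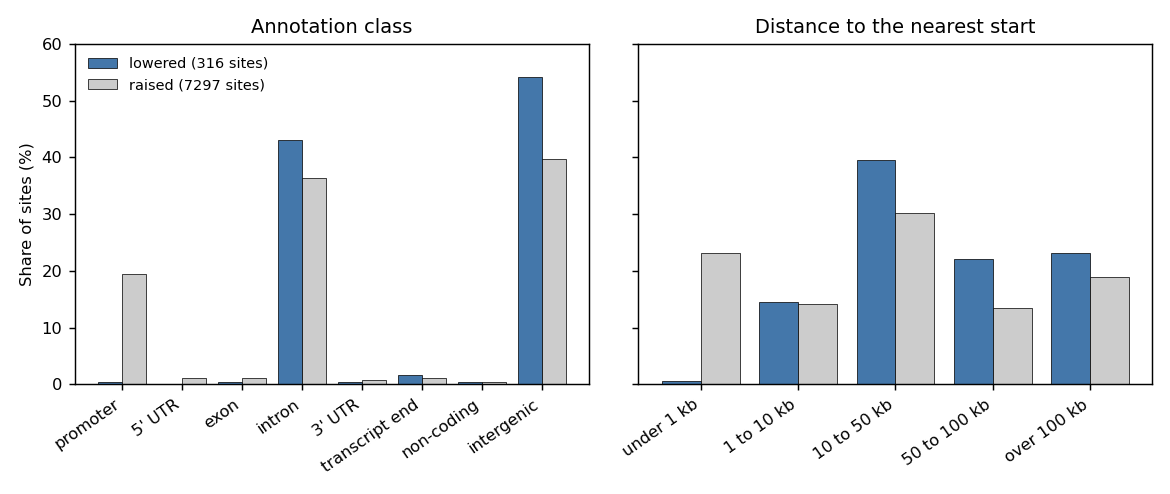
Share of sites (%) by the authors' annotation class (left) and by distance to the nearest transcription start (right), for the 316 lowered sites (blue) and the 7297 raised sites (grey) of the doxycycline list. Promoters hold 0.317% of the lowered and 19.5% of the raised sites, and the lowered sites exceed the raised ones in every distance class beyond 1 kb.

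Of the 136 sites in introns, 33 (24.3%) were in intron 1, 27 (19.9%) in intron 2 and 76 (55.9%) in all later introns together, beside 34.7%, 16.8% and 48.5% of the 2660 raised sites in introns. The median fold of the authors' deposited table was -1.17 between genes, -1.19 in intron 1, -1.19 in intron 2 and -1.195 further on. The gene that hosts the intron was also the gene with the nearest start at 98 of these sites. At the other 38 it was another gene, as at the site annotated to Mtss2 in an intron of Vac14, at that annotated to Fscn1 in an intron of Rnf216, and at 2 annotated to Phykpl in introns of Col23a1. The sites were short, from 75 to 665 bases wide with quartiles of 147 and 267, beside quartiles of 186 and 355 for the raised sites. Annotated repeats held 15.5% of them and 17.4% of the raised sites, with SINEs at 5.70% and 3.28% and LTR elements at 4.75% and 7.33%.

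The lowered sites lay on all 19 autosomes, from 7 on chromosome 12 to 25 on chromosome 11. Few lay close together: 19 sites formed 9 groups in which neighbours were within 500 bases. The densest held 3 sites within 722 bases upstream of 3300005D01Rik (chr17:5763976-5764697). In the authors' deposited table these had folds of -1.78, -1.72 and -1.24. The other groups were pairs annotated to A730013G03Rik, Acvr2a, Chac1, Enpp5, Gm11544, Habp2, Yap1 and Zfr. The pair of Gm11544 (chr11:94881925-94882981) has the highest level among all members, from 8.36 to 7.19 at its first site. No raised site lay within 500 bases of a lowered one, 1 lay within 1 kb and 88 members (27.8%) had one within 50 kb. The Mmp3 site had its nearest raised site 1342 bases away, and the first Yap1 site 160491 bases away.

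By nearest start, the lowered sites belong to 294 genes, 21 of which carry 2 or more. A second site of the same gene was far off for 12 of the 21, among them Nell2 (introns 3 and 10 of 20), Esrrg (both in intron 1), Cdh4 (both in intron 2), Prickle2 (introns 2 and 3), Cxcl12, Gatb and Umps. Of the 294 genes, 120 (40.8%) also carry raised sites. Among genes tested for RNA with blebbistatin, 101 of the 209 with a lowered site (48.3%) carry raised sites, beside 24.2% of all genes tested. The list does not give how many tested sites fall to each gene, so these shares can only be described. The nearest start is an assignment by position, and no contact between a site and a gene was measured.

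Yap1, the co-activator named in the study's title, carried 2 lowered sites and no raised one. Both lie in intron 5 of 7 (chr9:7943803-7943910 and chr9:7944201-7944334), 291 bases apart. The first went from a log2 level of 4.75 to 3.12 and the second from 5.03 to 3.35, which is 26.9 to 8.69 and 32.7 to 10.2 on the linear scale. The FDRs in the authors' deposited table were 0.00123 and 0.000393. These are among the 37 sites with a fold beyond 1.5, and their levels are below the median of all lowered sites.

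The other members named here come from gene lists that were chosen with earlier results of these data known. Over all 14882 genes tested for RNA with blebbistatin, 209 (1.404%) had a lowered site and 3598 (24.2%) a raised one. Of 28 genes for matrix degradation, 4 had a lowered site, 1 each, and the list's genes carry 15 raised sites. A site in intron 5 of 12 of Mmp2, or gelatinase A (chr8:92835197-92835525), went from 6.68 to 5.51. A site in intron 8 of 9 of Mmp3, or stromelysin 1 (chr9:7453353-7453619), went from 5.70 to 4.53. Sites in intron 2 of Adam12, a membrane-anchored metalloprotease (chr7:134151429-134151629, 5.77 to 4.75), and in intron 3 of Adamts2, the procollagen N-proteinase (chr11:50707303-50707656, 6.30 to 4.94), complete the 4. Of these genes Adamts2 alone also had raised sites, 2 of them.

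Among 30 genes for matrix structure, 1 had a lowered site, Postn, which encodes periostin (chr3:54413349-54413523, 5.82 to 4.34), and the list carries 30 raised sites. Among 46 genes of growth factor signalling, Cxcl12, a chemokine, had 2 (6.16 to 4.69 at 17022 bases past the start and 6.07 to 4.94 at 103111 bases), and the list carries 40 raised sites. Among 25 YAP/TAZ targets, Asap1, a GTPase-activating protein for Arf, had 1 lowered site (5.19 to 4.16) and 5 raised ones, and the list 43 raised sites in all. Of 17 genes of the Hippo core only Yap1 had lowered sites, and the list carries 10 raised ones. The lists of actin and SRF targets (20 genes), AP-1 and immediate early factors (15) and tendon identity and skeletal patterning factors (33) had 0 lowered sites, and 8, 10 and 28 raised ones. With 316 sites in all, counts of 0 to 4 per list can only be described.

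Most of the lowered sites were in no other list of the study. An overlap of at least 1 base with a site of another list was found for 7 of them, and for 3 where both lists were held to an FDR under 0.01. Each list holds only sites past its own threshold, so absence from a list is not a measure of no change. The 2 blebbistatin lists of the doxycycline experiment share libraries with the doxycycline list, and their values are set side by side only.

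The list of blebbistatin without doxycycline has 1231 sites, of which 1219 were lower and 12 higher with blebbistatin. It overlaps 3 of the lowered sites (0.949% of them and 0.244% of that list), all 3 among its lower sites, with FDRs of 3.65e-05 (Mesd), 0.0297 (Rgs20) and 0.00155 (Sytl2) in the authors' deposited table. The site annotated to Mesd, a chaperone of Wnt co-receptors, had a log2 level of 6.63 with neither drug and 5.30 with doxycycline in the doxycycline list, and 6.75 and 5.36 with neither drug and with blebbistatin in the other. For Rgs20, a regulator of G-protein signalling, these levels were 5.14 and 4.02, and 5.27 and 4.03. For Sytl2, which acts in vesicle transport, they were 6.26 and 4.96, and 6.39 and 5.21. Each drug alone thus took these 3 sites down by between 1.12 and 1.39 log2 units in the authors' deposited table, from a group that both comparisons share. The list of blebbistatin with doxycycline has 6346 sites, of which 6332 were lower and 14 higher. It overlaps 1 lowered site (0.317% of them and 0.0158% of that list), in intron 1 of Myo16, an unconventional myosin, and this one was among the 14 higher, at an FDR of 0.0241 in the authors' deposited table. The site stood at 4.71 with neither drug, at 3.47 with doxycycline, and in the other list at 3.44 with doxycycline and 4.51 with both drugs.

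The 2 ATAC lists share no library with the doxycycline experiment. The blebbistatin list has 970 sites, of which 953 were lower and 17 higher with the drug, and 2 lowered sites overlap it, both among the 17 higher (0.633% of the lowered sites and 0.206% of that list). The site in intron 3 of Prickle2, a planar cell polarity gene, went from 6.01 to 4.73 with doxycycline, and its ATAC level from 5.02 with DMSO to 6.43 with blebbistatin (FDR 0.0238 in the authors' deposited table). The site annotated to Sucnr1, the succinate receptor, went from 5.84 to 4.83 with doxycycline and its ATAC level from 4.18 to 5.74 with blebbistatin (FDR 0.0364 in the authors' deposited table). It was also in the Y27632 list of 207 sites (176 lower and 31 higher), where it went from 4.06 with DMSO to 5.64 with Y27632 (FDR 0.00524). The other overlap with that list, annotated to Zfp521, a zinc finger factor, went from 5.27 to 4.25 with doxycycline and from 5.62 to 7.06 with Y27632 (FDR 0.00202), so 2 members overlap it (0.633% of the lowered sites and 0.966% of the list). The deposited TEAD motif column marks 63.3% of the ATAC sites lower with blebbistatin, 0 of the 17 higher ones and so 0 of these 2.

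**Figure D3:**
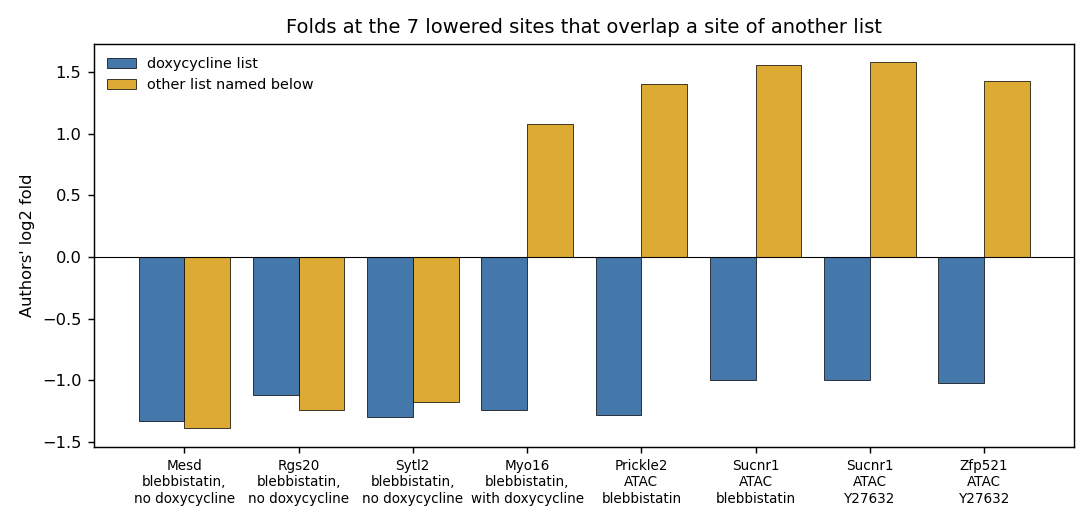
Log2 fold in the doxycycline list (blue) and in the other list (yellow, named under each pair of bars) at the 7 lowered sites that overlap a site of another list, as deposited by the authors, without error bars because only group means are listed. The 3 sites shared with blebbistatin without doxycycline were lower in both, and the other 4 sites, with Sucnr1 in 2 lists, were higher in the other list.

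RNA gives a readout that did not choose the sites, measured under the inhibitors and not under doxycycline. Of the 294 genes, 293 were found in the RNA tables. The 9 libraries held between 23375386 and 37061737 reads in genes. All 12 tendon fibroblast markers were present, including Col1a1, Scx and Tnmd, and of skeletal muscle markers Myod1, Myf5 and Ckm were at 0. All 5 leukocyte markers were present too, with Lyz2 the highest, and their summed normalised count was 5588 to 6185 with DMSO, 8019 to 9009 with blebbistatin and 8463 to 9642 with Y27632. The 5 endothelial markers summed to 3166 to 3230, 2006 to 2251 and 2955 to 3154 in the same order, nearly all of it Tek. Of these 5 markers 3 averaged 10 or more normalised counts, with the highest mean in Tek (2562) and the lowest in Emcn (0.463). The endothelial sum thus mostly follows Tek and cannot stand for that cell type. The Y27632 sums were normalised apart from the DMSO and blebbistatin sums, so they are not on quite the same scale. The part of either cell type in the results below was not tested, and in bulk RNA fewer cells of a type and less RNA per cell cannot be told apart.

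With blebbistatin, genes annotated to lowered sites were more often higher than lower. Of the 293 genes, 209 averaged 10 or more normalised counts in the 6 libraries and were tested, 84 averaged less, and 32 of these were at 0 in every library. By limma on log2(normalised count + 1), adjusted over all 14882 genes tested, 138 of the 209 had an adjusted p under 0.05 (66.0%, beside 53.0% of all genes). Of these 94 were higher (44.98%, beside 26.1% of all genes) and 44 lower (21.1%, beside 26.9%). The median log2 change was 0.12, and 0.00 over all genes. The genes annotated to lowered sites also had the higher counts, with a median of 1021 normalised counts beside 565 over all genes tested.

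The genes that carry raised and no lowered sites had a like median count, 927, and another split. Of 3497 tested, 810 (23.2%) were higher and 1311 (37.5%) lower with blebbistatin, with a median log2 change of -0.06. Genes with lowered and no raised sites numbered 108 among those tested, with 52 higher (48.15%), 17 lower (15.7%) and a median of 0.18. Those with both kinds of site numbered 101, with 42 higher (41.6%), 27 lower (26.7%) and a median of 0.09. Where the site lay in an intron, the host gene was tested in 109 cases, with 53 higher (48.6%) and 23 lower (21.1%). Over all genes tested, 26.1% were higher and 26.9% lower. No test of these sets against each other was made.

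**Figure D4:**
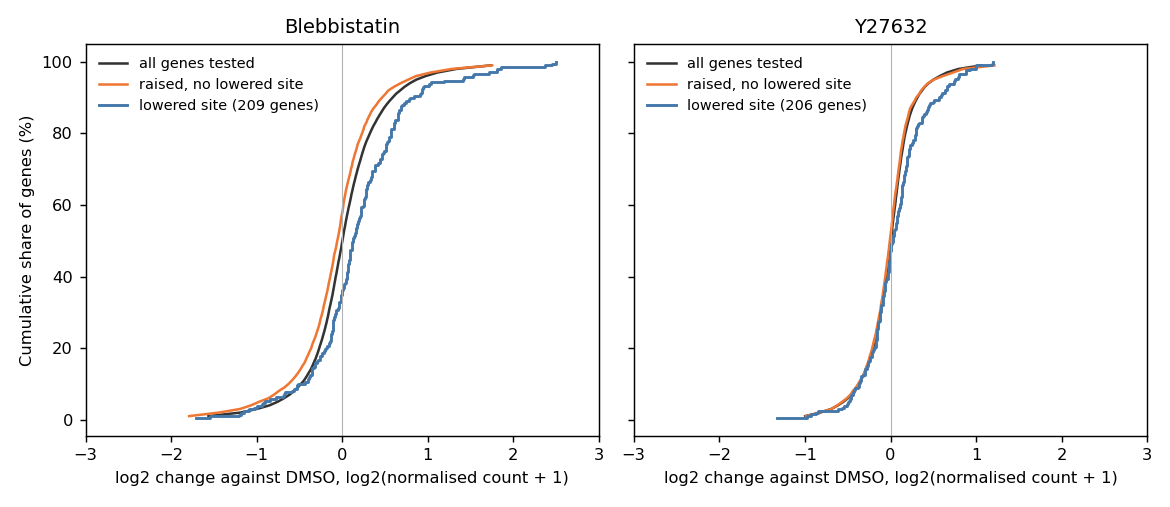
Cumulative share of genes (%) by log2 change against DMSO on the log2(normalised count + 1) scale, for blebbistatin (left) and Y27632 (right), for genes annotated to lowered sites (blue), genes annotated to raised and no lowered sites (orange) and all genes tested (black; the last 2 drawn at percentiles 1 to 99). With blebbistatin the blue line lies to the right of the others over most of its course, with a median of 0.12, and with Y27632 the 3 lines nearly coincide around 0.

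Proteases of the matrix were among the largest increases. The largest changes each way, here and with Y27632, were named only among genes whose 2 groups did not overlap. Absence of overlap in those genes is therefore not a result. Adam12 had normalised counts of 1330, 1309 and 1280 with DMSO and 4567, 4794 and 4862 with blebbistatin, a log2 change of 1.86 (SE 0.037, limma adjusted p = 3.85e-12). Mmp3 went from 6077, 6119 and 6415 to 23369, 22370 and 19810, a change of 1.81 (SE 0.051, limma adjusted p = 5.27e-11). Mmp2 went from 17022, 16847 and 17049 to 32227, 32209 and 31764, a change of 0.92 (SE 0.027, limma adjusted p = 7.83e-11). In Mmp2, named from its list, every blebbistatin library was also above every DMSO library. Adamts2, at 6756, 6650 and 6465 with DMSO and 7207, 7549 and 6903 with blebbistatin, was higher by 0.12 (SE 0.037, limma adjusted p = 0.0136), with groups that lie close together. Without the second blebbistatin library its change was 0.09 and its limma adjusted p 0.0518. All 4 genes of matrix degradation with a lowered site were thus higher, in a list where 16 of 28 genes were higher and 8 lower, with a median of 0.16. The list was chosen with earlier results of these data known, so these counts can only be described.

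The other large increases were in genes of varied function. Eepd1, whose site was among the largest decreases, went from 103, 97.1 and 79.3 to 330.3, 329 and 321, a log2 change of 1.81 (SE 0.11, limma adjusted p = 3.84e-08). Chst15, a sulfotransferase of chondroitin sulfate chains, went from 461, 510 and 410.1 to 1211, 1213 and 1252 (1.42, SE 0.071, limma adjusted p = 6.22e-09). Fam124a went from 246, 242 and 229 to 622, 636 and 650 (1.41, SE 0.065, limma adjusted p = 2.96e-09). In these genes the lowest blebbistatin library was more than double the highest DMSO library. Cxcl12 went from 6433, 6413 and 6503 to 14666, 14222 and 15196 (1.19, SE 0.032, limma adjusted p = 3.87e-11). Mtss2, which links membranes to actin, went from 1206, 1204 and 1171 to 2417, 2455 and 2372 (1.02, SE 0.037, limma adjusted p = 4.35e-10). Phactr1, a partner of actin and protein phosphatase 1, went from 506, 415 and 452 to 831, 914 and 862 (0.93, SE 0.073, limma adjusted p = 4.15e-07). These 3 genes too were named on the condition of no overlap.

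The largest decreases included an actin-bundling protein and enzymes. Chac1, which breaks down glutathione and carries 2 lowered sites at and past its transcript end, went from 889.6, 1034 and 1024 to 282, 325 and 291, a log2 change of -1.71 (SE 0.076, limma adjusted p = 2.23e-09). Fscn1, or fascin, went from 14612, 14414 and 13557 to 5875, 6816 and 6050 (-1.19, SE 0.051, limma adjusted p = 1.63e-09). Slco2a1, the prostaglandin transporter, went from 4779, 5040 and 4968 to 2383, 2438 and 2118 (-1.09, SE 0.049, limma adjusted p = 2.66e-09). By the rule that named these genes, every blebbistatin library was below every DMSO library. Bach2, a transcriptional repressor, went from 381, 451 and 358 to 180, 188 and 210 (-1.04, SE 0.099, limma adjusted p = 2.38e-06). Znhit6 went from 1843, 2015 and 1993 to 942, 993 and 993 (-0.997, SE 0.047, limma adjusted p = 3.57e-09). Dhrs3, a retinaldehyde reductase, went from 1323, 1245 and 1436 to 667, 726 and 692 (-0.94, SE 0.058, limma adjusted p = 4.56e-08). The same rule named Map4k3, a kinase upstream of JNK (-0.93, limma adjusted p = 2.71e-09), and Rab8b, a GTPase of vesicle traffic (-0.90, limma adjusted p = 7.77e-10).

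**Figure D5:**
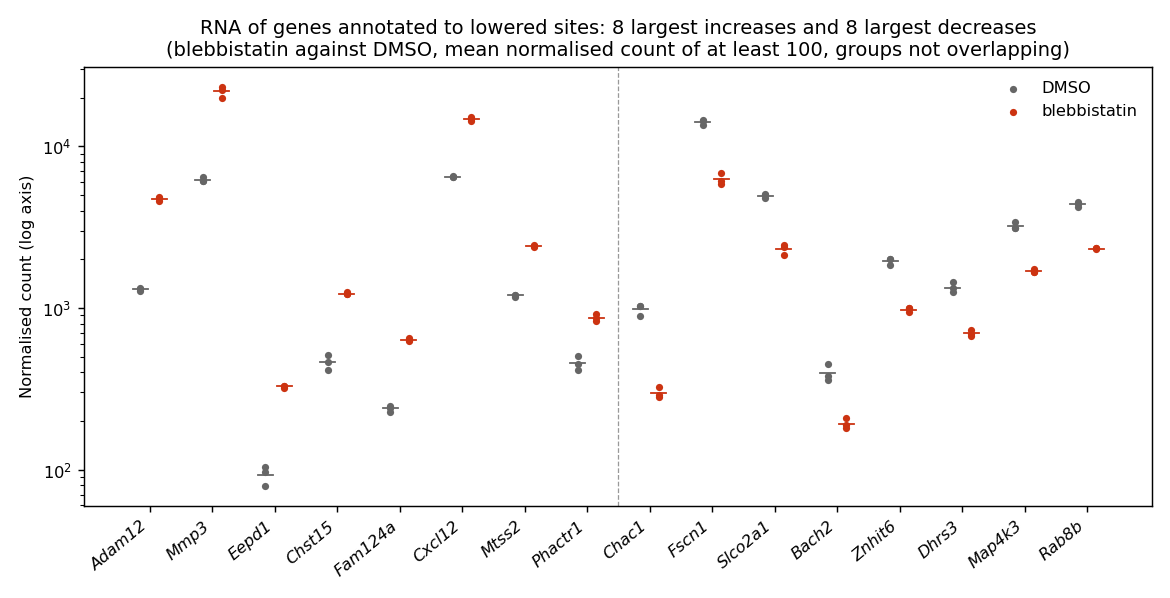
Normalised count (log axis) in each of the 3 DMSO (grey) and 3 blebbistatin (red) libraries, 1 point per library with a line at the mean, for genes annotated to lowered sites that had the 8 largest increases and the 8 largest decreases at a mean normalised count of at least 100. The 16 genes were chosen only among those whose groups do not overlap. They run from Adam12 at the left, 1309 against 4794 in the second library of each group, to Rab8b at the right, 4364 against 2339.

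Of the 12 genes with the largest site decreases, 8 were tested, and with blebbistatin 4 of them rose, 0 fell and 4 did not pass. Over all genes tested, 53.0% passed, 26.1% as higher and 26.9% as lower, so these 8 can only be described. Gas7 went from 3865, 3678 and 3433 to 6993, 6987 and 6589, a log2 change of 0.91 (SE 0.044, limma adjusted p = 4.73e-09), without overlap. Gipc2 went from 7.94, 4.41 and 8.04 to 29.1, 18.9 and 24.8 (1.71, SE 0.33, limma adjusted p = 0.000846), at few reads. Eepd1 and Phactr1, given above, rose too. Arid1a (-0.10, limma adjusted p = 0.163; 0.00619 without the third DMSO library), Slc16a1 (-0.04, limma adjusted p = 0.496) and Nnmt (0.06, limma adjusted p = 0.296) did not pass, and their groups overlapped. Ugt1a6a, at 255, 224 and 295 with DMSO and 300.2, 288 and 300.4 with blebbistatin, did not pass either (0.21, SE 0.098, limma adjusted p = 0.0969). The other 4 were under the count minimum.

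The remaining named genes changed less. Yap1 had normalised counts of 4358, 4642 and 4388 with DMSO and 4829, 4957 and 4877 with blebbistatin, a log2 change of 0.13 (SE 0.034, limma adjusted p = 0.00615). The blebbistatin libraries lay just above the highest DMSO library. Acvr2a, the activin receptor, went from 1732, 1840 and 1830 to 1038, 1073 and 1052 (-0.77, SE 0.042, limma adjusted p = 1.3e-08). Enpp5 went from 663, 664 and 569 to 1131, 1096 and 1159 (0.84, SE 0.063, limma adjusted p = 2.78e-07). The RNA of 3300005D01Rik, beside the 3 clustered sites, went from 622, 673 and 715 to 891, 795 and 870.1 (0.35, SE 0.064, limma adjusted p = 0.000615). None of these 3 groups overlapped. Zfr missed the threshold (-0.08, limma adjusted p = 0.0501; 0.0417 without the first DMSO library), and Postn (-0.05, limma adjusted p = 0.553) and Asap1 (0.02, limma adjusted p = 0.691) did not pass. Phyhd1, the gene of the promoter site, went from 249, 300.1 and 276 to 322, 345 and 348 (0.30, SE 0.084, limma adjusted p = 0.00939). Genes with 2 or more lowered sites were tested in 13 cases. Of these 6 were higher (46.15%, beside 26.1% of all genes) and 2 lower (15.4%, beside 26.9%). Their median log2 change was -0.08, which differs in sign from that split.

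The genes of the 7 sites in other lists can be set beside them. Mesd, whose site both drugs lowered, had normalised counts of 2727, 2768 and 2783 with DMSO and 3232, 3068 and 3081 with blebbistatin (0.18, SE 0.035, limma adjusted p = 0.000843). Sytl2, of another such site, went from 458, 486 and 487 to 568, 536 and 629 (0.27, SE 0.069, limma adjusted p = 0.00508). The RNA of both was higher with blebbistatin, without overlap between the groups. Prickle2, whose site was higher in the ATAC list, went from 1081, 1120 and 1095 to 1527, 1492 and 1521 (0.46, SE 0.04, limma adjusted p = 9.3e-07). Rgs20 (0.06, limma adjusted p = 0.883), Myo16 (0.19, limma adjusted p = 0.112) and Zfp521 (-0.04, limma adjusted p = 0.383) did not pass, and Sucnr1 was at 0 in all 6 libraries.

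With Y27632 these genes were again more often higher than lower, with a median change close to 0. Of the 293 genes, 206 were tested, 87 were below the minimum and 34 of these were at 0. By limma, adjusted over all 14833 genes tested, 108 had an adjusted p under 0.05 (52.4%, beside 35.9% of all genes). Of these 66 were higher (32.0%, beside 18.1% of all genes) and 42 lower (20.4%, beside 17.8%). The median log2 change was 0.03, and 0.00 over all genes, with a median normalised count of 1105 beside 584 over all genes. Genes with raised and no lowered sites, at a median count of 979.8, had 727 higher (20.8%) and 794 lower (22.7%) of 3491 tested. The DMSO libraries are the same as in the blebbistatin comparison, so the 2 comparisons are not independent.

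The largest increases with Y27632 included matrix proteases and a cytokine receptor. Adam12 went from 1383, 1359 and 1330 with DMSO to 3062, 3047 and 3251 with Y27632, a log2 change of 1.2 (SE 0.038, limma adjusted p = 7.43e-10). Mmp3 went from 6318, 6352 and 6666 to 14043, 12000 and 12537 (0.99, SE 0.048, limma adjusted p = 9.15e-09). Il1r1, the interleukin-1 receptor, went from 1717, 1728 and 1757 to 3828, 3022 and 3563 (0.99, SE 0.065, limma adjusted p = 1.35e-07). In all 3 the groups were far apart. Chst15 rose by 0.88 (limma adjusted p = 8.06e-07) and Trib2, a pseudokinase, by 0.78 (limma adjusted p = 7.98e-06). Mmp2, Cxcl12 and Gas7 rose by 0.39, 0.66 and 0.75 (limma adjusted p = 6.2e-07, 4.79e-09 and 2.65e-08). Postn, at 19893, 23012 and 20683 with DMSO and 25026, 22711 and 24422 with Y27632, rose by 0.18 (SE 0.05, limma adjusted p = 0.0116) with groups that overlap, and its limma adjusted p was 0.0567 without the first DMSO library.

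The largest decreases with Y27632 were led by Chac1, from 925, 1073 and 1064 to 368, 475 and 379, a log2 change of -1.33 (SE 0.09, limma adjusted p = 1.8e-07). Slco2a1 went from 4968, 5232 and 5163 to 2599, 2606 and 2592 (-0.98, SE 0.032, limma adjusted p = 7.43e-10). Pcca, a subunit of propionyl-CoA carboxylase, went from 729.8, 758 and 739 to 556, 545 and 479 (-0.50, SE 0.063, limma adjusted p = 4.9e-05). By the rule that named these genes, the Y27632 libraries were all below the DMSO libraries. Dhrs3 fell by 0.49 (limma adjusted p = 6.16e-05), and Capn2, the catalytic subunit of a calpain, fell by 0.47 (limma adjusted p = 1.16e-07). Fscn1 fell by 0.32 (limma adjusted p = 1.93e-05). Eepd1, Mtss2, Rab8b and Yap1 did not pass, with log2 changes of 0.25, 0.07, -0.05 and 0.03 and limma adjusted p-values of 0.183, 0.243, 0.342 and 0.462. Prickle2 and Sytl2, higher with blebbistatin, were lower with Y27632, by log2 changes of -0.27 and -0.46 (limma adjusted p = 0.000813 and 0.000107). The difference between the inhibitors was not tested.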

How the data were processed

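The site lists hold log2 group means, log2 folds, p-values and FDRs that the authors deposited, and no value per library, so their depth is unknown and no error or test of a site was computed. The submitters' processing notes name mm10, Bowtie2, MACS2, DiffBind and HOMER, and for RNA HISAT2, featureCounts and DESeq2, without versions. Distances to starts and, in 1 ATAC list, a GC fraction that was not used come from the authors. The doxycycline list names its reference column after blebbistatin alone. It was read as neither drug, since at 13 sites in common with the blebbistatin list it was -0.13 on average (SD 0.0044) from neither drug and 1.12 (SD 0.184) from blebbistatin alone. The members and lists were chosen with earlier results of these data known.

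The RNA tables hold a signal that the authors deposited, counts divided by 1 size factor per library, as read from the values: 100% came out as whole reads within 0.1 read, and the DMSO reads were identical in both tables. Genes with a mean of at least 10 were tested by limma's trend method (limma 3.58.1, R 4.3.3) after log2(normalised count + 1), a scale that understates changes of low genes, with Benjamini-Hochberg adjustment and calls under 0.05. edgeR 4.0.16 and DESeq2 1.42.0 on the recovered reads were alternatives. The fit was tested on simulated data. Strand use in counting is not given in the sources used here. Genes named with RNA values are the 8 largest changes each way with blebbistatin and the 5 with Y27632 at a mean of at least 100 without overlap, genes of the 10 sites with the largest decreases (12 with ties), genes with 2 or more sites, and list genes. Phyhd1 and the genes of sites in other lists were added after their values were seen. Sites of Ugt1a6a, Mtnr1b and Trhr2 were named after their levels were seen. Per-sample columns without a matching label numbered 0.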

Additional observations from a re-analysis of the deposited data

How the results depend on the processing

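The number of lowered sites was 245 at an FDR under 0.01 and 37 at an absolute log2 fold of at least 1.5, and the sites found in other lists numbered 3 where both lists were held to an FDR under 0.01. With only sites within 50 kb of the start, 78 of 121 tested genes passed with blebbistatin (64.5%, beside 53.0% of all genes). Of these 54 were higher and 24 lower. With Y27632 64 of 120 passed (53.3%, beside 35.9% of all genes), 38 higher and 26 lower. The median log2 change with Y27632 was then -0.002, so that its sign turned. Leaving out each library in turn gave 127 to 135 genes with blebbistatin and 87 to 98 with Y27632. DESeq2 gave 128 and 91, and edgeR 137 and 108. For these fits, and for the replicate block below, the share over all genes is not given here. The replicate numbers did not pair the samples (same-number correlations of -0.163, 0.054 and 0.052 with blebbistatin and -0.208, -0.051 and -0.097 with Y27632), and with the replicate block 138 and 91 genes passed. Of the 568 values of single genes recomputed per inhibitor, 559 with blebbistatin and 526 with Y27632 kept their direction and side of the threshold. With 1 library left out the sign turned in some genes that did not pass. With blebbistatin these were Asap1 without DMSO 3 (-0.002) and Postn (range -0.108 to 0.026, above 0 without DMSO 2 or blebbistatin 3), and with Y27632 A730013G03Rik (-0.086 to 0.395, below 0 without DMSO 3 or Y27632 1), Asap1 (-0.007 to 0.059) and Slc16a1 (-0.016 to 0.122). Motif shares over all sites were not run. The cause of these differences was not tested, beyond fewer sites or samples.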

Other observations

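The X chromosome held 0 of the 316 lowered sites and 160 of the 7297 raised ones. Among genes annotated to lowered sites with few reads, Pde11a (2.50, limma adjusted p = 9.82e-05), Trhr2 (2.46, limma adjusted p = 4.87e-05) and Galnt9 (2.37, limma adjusted p = 0.000194) had the largest log2 changes with blebbistatin. They were singled out after their values were seen. Pde11a encodes a phosphodiesterase of cyclic nucleotides and Galnt9 an enzyme that starts mucin-type glycosylation.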
